A study of Homo sapiens with 8 samples.

Results

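The 4 input libraries of SiHa cells, out of 8 libraries in all, held sonicated chromatin that had not been enriched with an antibody. They were selected by their labels, which give no antibody, and were read over all 38157 promoter windows of the series, of which 36493 lay on autosomes. SiHa is an established line that was derived from a cervical squamous carcinoma. Cells were placed on a porous transwell membrane, and after 10 h those that had crossed it (migrated) and those that had not (non-migrated) were collected separately. Each of the groups compared, non-migrated input and migrated input, held 2 libraries, 1 from each of 2 replicate sets, and no allele, drug or other agent distinguished them. The other 4 libraries of the series were made from the same fractions by immunoprecipitation of H3K9me3, histone H3 trimethylated at lysine 9. Set 1 was prepared with an Illumina TruSeq ChIP kit and gel extraction, and its duplicate reads, which were many, were removed. Set 2 was a second biological replicate prepared with AMPure XP beads and an NEB Ultra kit, so kit, culture and handling changed together between the sets and cannot be told apart, while the fractions of a set shared their kit. All values describe 1 cell line, and each fraction was a pool of cells.

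An input library samples genomic DNA, so the number of reads over a stretch of the genome follows how many copies of that stretch the cells carry, apart from effects of base composition, chromatin shearing and how uniquely reads can be placed. SiHa has an abnormal karyotype with a chromosome number near triploid, and it carries a human papillomavirus genome integrated on the long arm of chromosome 13, between the transcription factor genes KLF5 and KLF12. Gain of 3q, which holds TERC and PIK3CA, and of 5p, which holds TERT and DROSHA, and loss of 3p, 4p and 13q recur in cervical carcinoma. Reads in an input say nothing about expression.

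The promoters below show the base composition that the read values run across. STK11, which encodes the kinase LKB1, had a window without a read, and GPX4, a glutathione peroxidase that removes lipid peroxides, was the nearest window that was read on its left side. KLF5 and FGFR3, a growth factor receptor gene on 4p, had the lowest and the highest GC content among the plus-strand promoters of the landmark genes used here. Each stretch is the 250 bases before the start of the gene in RefSeq, taken from GRCh38.p14 on the plus strand, with CpG dinucleotides in capitals.
STK11, chr19:1205528-1205777: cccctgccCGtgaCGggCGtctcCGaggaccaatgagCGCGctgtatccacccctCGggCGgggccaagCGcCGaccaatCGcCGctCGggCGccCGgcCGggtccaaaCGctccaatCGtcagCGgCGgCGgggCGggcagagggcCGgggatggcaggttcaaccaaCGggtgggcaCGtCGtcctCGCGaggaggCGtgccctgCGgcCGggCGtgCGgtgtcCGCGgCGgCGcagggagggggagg
GPX4, chr19:1103744-1103993: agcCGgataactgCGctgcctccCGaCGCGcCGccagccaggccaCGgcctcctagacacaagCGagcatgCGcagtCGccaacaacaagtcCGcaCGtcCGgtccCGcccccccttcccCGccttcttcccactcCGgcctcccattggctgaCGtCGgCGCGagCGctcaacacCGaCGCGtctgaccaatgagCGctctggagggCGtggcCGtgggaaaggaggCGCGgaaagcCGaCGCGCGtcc
KLF5, chr13:73054726-73054975: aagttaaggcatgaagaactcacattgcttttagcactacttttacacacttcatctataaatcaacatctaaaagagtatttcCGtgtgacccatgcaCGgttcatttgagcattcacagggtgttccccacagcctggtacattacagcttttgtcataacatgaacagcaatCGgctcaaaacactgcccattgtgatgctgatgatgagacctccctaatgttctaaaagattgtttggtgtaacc
FGFR3, chr4:1793043-1793292: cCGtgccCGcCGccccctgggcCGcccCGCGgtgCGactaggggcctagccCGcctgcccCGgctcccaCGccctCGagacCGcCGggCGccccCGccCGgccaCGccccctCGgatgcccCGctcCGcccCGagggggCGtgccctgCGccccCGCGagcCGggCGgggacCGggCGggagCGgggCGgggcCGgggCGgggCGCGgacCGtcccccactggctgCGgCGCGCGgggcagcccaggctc
The STK11 stretch held 37 CpG at 76.0% GC and that of GPX4 33 at 69.6%, while the stretch of KLF5 held 3 at 40.8% and that of FGFR3 40 at 86.8%. Over 26246 autosomal RefSeq promoters the median was 11 CpG at 58.0% GC. The positions of all windows below are in hg19, the build of the deposited values, and a window carries the name of a gene it overlaps without always being the promoter of that gene.

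The windows held 388191 reads in the non-migrated and 684949 in the migrated input of set 1, and 1729061 and 1679874 in those of set 2. The median autosomal window of 2100 bases had 9, 17, 40 and 40 reads, in the same order, which is kept for every series of 4 values below. Windows without a read made up 3.40%, 2.92%, 2.41% and 2.49%. At these depths 1 read is a large step in set 1, so values per window rest mainly on set 2. Between the fractions of a set, windows differed slightly more than counting error alone gives, with a mean chi-square per window of 1.34 in set 1 and 1.21 in set 2, where 1 is pure counting error (windows with at least 10 reads in the pair). Between the sets it was 2.80 for the non-migrated and 2.48 for the migrated inputs, so the set separated the libraries more than the fraction did.

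The first comparison asked whether the cells that crossed the membrane carried other DNA content than those that stayed, arm by arm. No autosome arm differed beyond the spread of the libraries. The share of autosomal promoter reads on 5p, the short arm that holds TERT, was 2.72% in the non-migrated and 2.63% in the migrated input of set 1, and 2.40% and 2.44% in set 2. For 16q, which holds the E-cadherin gene CDH1, the shares were 3.01%, 3.22%, 3.84% and 3.81%. For 20q, which holds the mitotic kinase gene AURKA, they were 2.90%, 3.02%, 3.35% and 3.33%. The direction between the fractions changed from set 1 to set 2 in each of these arms. As log2 of migrated over non-migrated share, the difference was -0.01 for 5p (95% interval -0.11 to 0.08), 0.04 for 16q (-0.08 to 0.17) and 0.02 for 20q (-0.08 to 0.12; n = 2 sets).

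Over all 39 arms with at least 20 windows, the fraction difference ran from -0.13 (21q) to 0.15 (19p) in set 1 and from -0.11 (17p) to 0.12 (7q) in set 2. Both sets gave a difference of at most 0.1 in either direction for 32 arms, and 20 arms had the same sign in both. limma with the set as a block called 0 of 39 arms (0%) at an adjusted p of 0.05, with 0 at an unadjusted p under 0.05 and a smallest adjusted p of 0.815. The interval of the median arm reached 0.08 to either side. In 1 alternative, with limma's prior variance trended on the level, 1 arm was called, 18p, whose differences were -0.03 in set 1 and -0.03 in set 2. These differences were nearly equal in the sets, which left almost no residual spread for that arm.

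**Figure D1:**
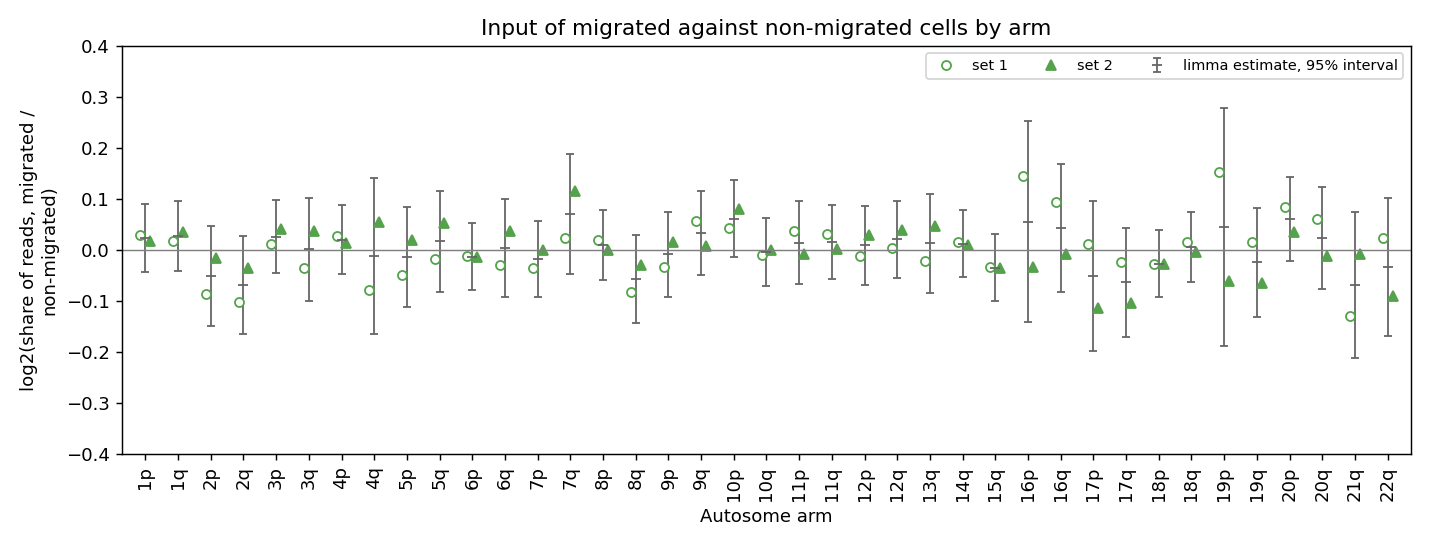
Difference between migrated and non-migrated input (y axis, log2 of the ratio of shares of autosomal promoter reads) for each of 39 autosome arms (x axis), with set 1 as circles, set 2 as triangles, and limma's estimate with its 95% interval as bars. Values lie between -0.13 and 0.15, with most set 1 and set 2 points on or near 0, and every interval includes 0.

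The same held in bins of 5 Mb. limma called 0 of 557 bins (0%), with 13 at an unadjusted p under 0.05 and a smallest adjusted p of 0.962. In the 552 bins whose dosage lay above log2 -2, the SD of the fraction difference was 0.135 in set 1 and 0.0798 in set 2, against an SD of 0.477 for the dosage itself over the same bins. Of these bins 254 had the same sign in both sets, and the correlation of the differences of the sets across the bins was -0.07 (n = 552 bins, which share libraries and depth and are not independent). Without the non-migrated input of set 2, which leaves 1 library in that group, assumed to vary like the other, 1 bin was called, at 45 to 50 Mb of chromosome 9, which had a median of 0 reads in all 4 inputs.

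Single windows gave no call either. limma tested 36383 windows and called 0 (0%), while 1749 (4.81%) had an unadjusted p under 0.05 and the smallest adjusted p was 0.994. None was called without the block, without precision weights, without the filter on low reads, with other scalings, with all 8 libraries in the fit, or without any 1 library. The interval of the median window reached 0.59 to either side on the log2 scale before any adjustment for the number of windows. After adjustment even the windows named next, with differences near 1 on that scale, were not called, so differences of that size could not be detected reliably in 1 window at this depth. The windows below were those of smallest p whose sign agreed across the sets, and their values are given as such.

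PDPK1, which encodes a kinase upstream of AKT, had a window on 16p (2585965 to 2588065) with 7 reads in the non-migrated and 34 in the migrated input of set 1, and 38 and 72 in set 2. The migrated input was higher in each set, with a log2 difference of 1.02 ± 0.29 (SE, n = 2 sets, limma adjusted p = 0.994). In the fit of windows limma took the variance wholly from its prior. The SE of a window thus follows its number of reads and not the spread between its own 2 sets. PDPK1 has a near-identical copy close by on the same arm, so reads could be split between them by the counting. ENO2, the enolase of neurons, had 6, 32, 44 and 79 reads in its window on 12p (7031626 to 7033726). The migrated input was also higher there in both sets, by 0.96 ± 0.28. PIGN, an enzyme of the membrane anchor pathway for surface proteins, had 3, 10, 20 and 49 reads, and GPR144, an adhesion G protein-coupled receptor gene, had 10, 39, 70 and 111. The fifth window of this direction, of RP11-624L4.1 on 15q, had 11, 24, 13 and 44 reads. Its log2 difference was 0.27 in set 1 and 1.76 in set 2, a gap that its SE of 0.37 does not reflect.

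In the other direction, CHD2, which encodes a chromatin remodeller, had 27, 16, 77 and 43 reads in its window on 15q (93423937 to 93426037). The migrated input held fewer reads in both sets, with a log2 difference of -1.03 ± 0.26 (n = 2 sets, limma adjusted p = 0.994). DGCR2, an adhesion receptor gene of 22q, had 23, 20, 83 and 43 reads. DNM3, which encodes a dynamin of membrane fission, had 15, 12, 49 and 19. CETN2, which encodes a centrin of the centrosome and lies on X, had 15, 15, 75 and 35, and RP11-740P5.2 on 1p had 15, 9, 104 and 56. In raw reads, the inputs of set 2 were further apart in these windows than those of set 1, which held few. Scaled to library size, the log2 difference was -1.56 in set 1 and -0.79 in set 2 for CHD2. For RP11-740P5.2 it was -1.53 and -0.85, and for DGCR2 -1.02 and -0.90. Set 2 was further apart for DNM3 (-1.13 and -1.30) and CETN2 (-0.82 and -1.05). None of the 10 stood beyond the spread once all windows were considered.

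The fraction differences had a slight slope with promoter density that ran in opposite directions in the sets. When 2100-base autosomal windows were ordered by how many windows their bin held, the sparsest of 10 equal groups had a log2 difference of -0.10 in set 1 and 0.02 in set 2. The densest had 0.06 in set 1 and -0.04 in set 2. By GC content of the promoter, for the windows with a sequence, the lowest of 10 groups had -0.06 in set 1 and 0.06 in set 2. These are descriptions without a test.

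The second comparison asked how dosage, the median reads per 2100-base window of an arm over the median autosomal window of the same library, varied along the SiHa genome. The clearest departures were high dosage on 16q, 5p and 20q and low dosage on 4q, 13q, 4p, 9p and 8p, and they were present in both fractions. On 16q the median window had 21 reads in the non-migrated and 40 in the migrated input of set 1, and 114 and 113 in set 2. On 5p it had 24, 42, 91 and 90, and on 20q it had 17, 30, 81 and 78. All 4 inputs thus lay well above their medians of 9, 17, 40 and 40 in these arms. The mean log2 dosage was 1.37 ± 0.16 on 16q (SD, n = 4 libraries), 1.27 ± 0.11 on 5p and 0.93 ± 0.08 on 20q, which is 2.58-fold, 2.41-fold and 1.90-fold the autosomal median. limma's adjusted p was 4.80e-06 in each of the 3. Next came 19q at 0.48 ± 0.15, 21q at 0.38 ± 0.10 and 7q at 0.37 ± 0.08.

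The arms of lowest dosage were close to each other. On 4q the median window had 7, 11, 22 and 23 reads, and on 13q, the arm of the RB1 tumour suppressor gene and of the viral integration, it had 6, 12, 25 and 25. On 4p it had 6, 11, 27 and 26. Every input was below its autosomal median in these arms. The mean log2 dosage was -0.66 ± 0.22 on 4q (adjusted p = 0.000482), -0.61 ± 0.08 on 13q (3.35e-05), -0.60 ± 0.03 on 4p (1.22e-05), -0.59 ± 0.19 on 9p (0.000482), -0.58 ± 0.06 on 8p (2.24e-05) and -0.44 ± 0.06 on 6p (0.000109), all by limma. From 4q to 8p, neighbours in this order did not differ beyond their spread. For orientation, 2 copies against 3 is a log2 ratio of -0.58, 4 against 3 is 0.42 and 6 against 3 is 1.00. No copy number was assigned, since the median window's own copy number was not measured.

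limma called 25 of 39 arms (64.1%), 13 higher (33.3%) and 12 lower (30.8%). These p-values take the 4 inputs as 4 values, although the fractions of a set share cells and kit. With the fractions averaged within each set (2 values), 14 arms were called, 7 higher and 7 lower. The 6 arms of lowest dosage and 16q, 5p, 20q, 19q, 21q and 7q were all among the 14. The 3p arm, a site of recurrent loss, had 10, 18, 42 and 43 reads at the median and a log2 dosage of 0.10 ± 0.04, called by limma (adjusted p = 0.0385) but not after averaging (0.286). For 3q as a whole, with 11, 19, 40 and 41 reads, the dosage was 0.12 ± 0.13 and was not called (adjusted p = 0.0971).

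**Figure D2:**
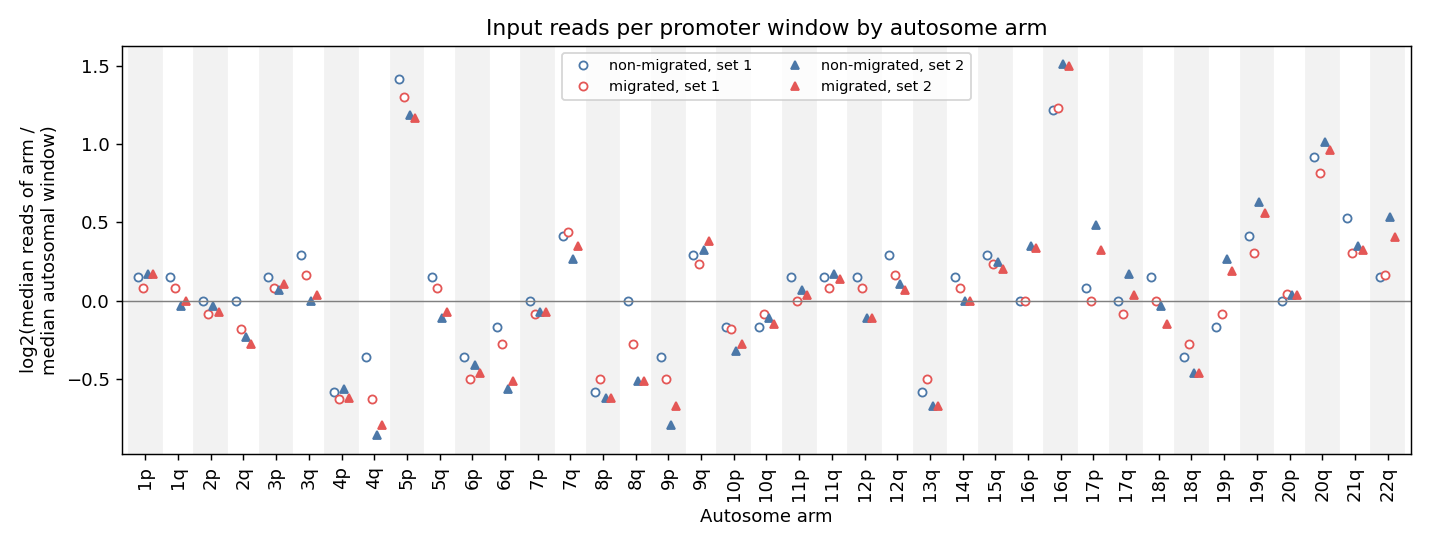
Dosage of each of 39 autosome arms (x axis) in each input, as log2 of the arm's median reads per 2100-base window over the median autosomal window of that library (y axis), with set 1 as circles, set 2 as triangles, non-migrated in blue and migrated in red. All 4 inputs lie high on 16q, 5p and 20q and low on 4p, 4q, 8p, 9p and 13q, and points of the 2 fractions of a set lie close together.

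The fractions had nearly the same dosage profile. Across the 39 arms the correlation of dosage between non-migrated and migrated input was 0.977 in set 1 and 0.994 in set 2, and between the sets, with fractions averaged, it was 0.928. Across 552 bins these values were 0.931, 0.982 and 0.830. Arms and bins share libraries and base composition and are not independent, so no p is given. The H3K9me3 libraries of set 2 had high dosage on the same arms, with log2 1.80 (non-migrated) and 2.04 (migrated) on 5p, 0.97 and 0.95 on 16q, and 0.93 and 0.81 on 20q. On 5p these values exceeded those of the inputs of that set (1.19 and 1.17), and on 16q they were lower than the inputs (1.51 and 1.50). In set 1, whose H3K9me3 libraries had a median of 3 and 1 reads per window, the values were 2.00 and 2.58 on 5p and 0.74 and 1.58 on 16q, against 1.22 and 1.23 in the inputs on 16q, so the direction on 16q was not the same in every library. The difference between the kinds of library was not tested here.

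At a scale of 5 Mb, limma called 271 of 557 bins (48.7%), 114 higher (20.5%) and 157 lower (28.2%). With the fractions averaged within each set it called 183, 61 higher and 122 lower. The highest bin was 65 to 70 Mb of 16q, which holds CDH1, with medians of 28, 55, 169 and 155 reads and a log2 dosage of 1.85 ± 0.20 (n = 4, adjusted p = 0.000112). The bins at 85 to 90 Mb (1.67 ± 0.37) and 80 to 85 Mb (1.42 ± 0.12) of 16q were also among the 6 highest, while those at 45 to 50 Mb (0.13) and 50 to 55 Mb (0.59) lay lower, so 16q was not even along its length. On 5p the bins ran from 0.81 at 25 to 30 Mb to 1.52 at 10 to 15 Mb, and the 2 lower ones, at 20 to 25 and 25 to 30 Mb, had a log2 dosage of 1.27 and 1.10 in set 1 and of 0.56 and 0.52 in set 2. On 20q all 7 bins lay between 0.77 and 1.09.

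Of the lowest bins, 3 had a median of 0 reads in all 4 inputs, at 40 to 50 and 65 to 70 Mb of chromosome 9, which flank its centromere. The next were 15 to 20 Mb of chromosome 14 (0, 0, 1 and 2 reads), 140 to 145 Mb of chromosome 1 (1, 2, 6 and 4) and 90 to 95 Mb of chromosome 2 (3, 3, 10 and 7). All of these lie next to a centromere or in the duplicated sequence around one. In the bins of chromosome 9, 48.8%, 55.6% and 35.1% of windows had no read in any input. How far reads can be placed uniquely there was not tested.

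**Figure D3:**
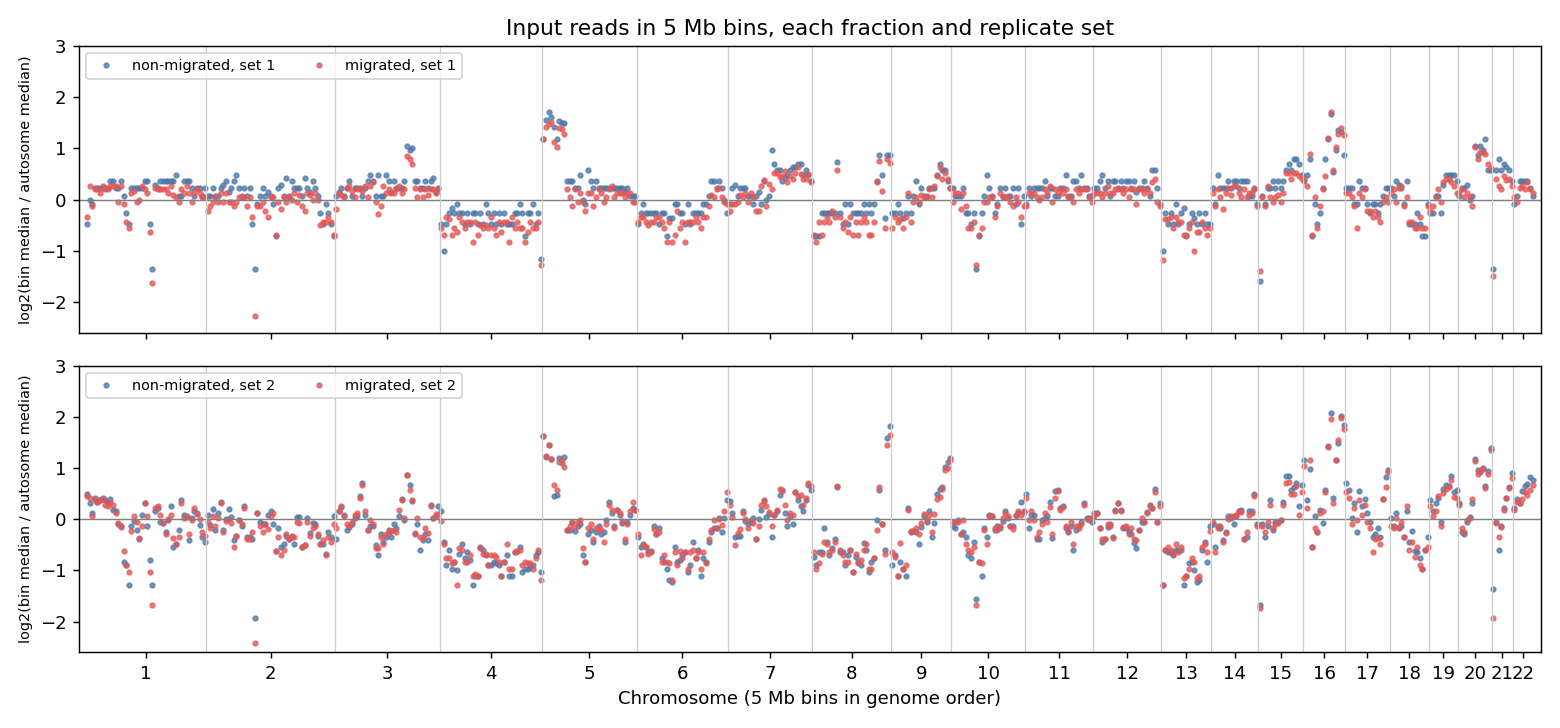
Dosage of 552 bins of 5 Mb in genome order (x axis, chromosomes 1 to 22) as log2 of the bin's median reads over the autosomal median (y axis), with set 1 above and set 2 below, non-migrated in blue and migrated in red. High steps on 5p, 16q and 20q and low stretches on 4p, 4q, 13q and 8p recur in both panels, the points of set 2 are more spread within arms, and 5 bins with a mean at or below -2 are not drawn.

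Within arms, 8 blocks of at least 2 neighbouring bins departed from their arm's median bin by at least 0.3 in each of the 4 inputs. This rule was set after the values had been seen, so the blocks are described without a test. On 3q, the block at 135 to 150 Mb had medians of 17, 29, 61 and 59.5 reads against 10, 18, 38 and 39 in the rest of the arm. It lay higher in every input, by 0.69 ± 0.06 on the log2 scale (SD, n = 4). It holds ATR, the kinase that responds to stalled replication forks, PIK3CB, a catalytic subunit of phosphoinositide 3-kinase, and the cohesin subunit gene STAG1. TERC and PIK3CA, the genes usually named for gain of 3q, lie outside it.

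On 6q, 140 to 165 Mb had 10, 18, 35 and 37 reads against 7, 12, 25 and 25 in the rest of that arm, a difference of 0.54 ± 0.05. This block, which holds the oestrogen receptor gene ESR1, lay near the autosomal median while the rest of 6q lay under it. On 15q, 85 to 95 Mb, with IDH2 and FURIN, had 15, 24, 63 and 61 reads against 11, 19, 45 and 44. On 8q, 120 to 135 Mb was higher by 0.81 ± 0.08, and 140 to 150 Mb had 16, 28, 129 and 114 reads against 8, 13, 26 and 26. The second of these blocks differed by 1.00 and 1.11 in set 1 but by 2.31 and 2.13 in set 2, so its size depended on the set.

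Of the 3 lower blocks, 10q at 40 to 60 Mb, with the receptor tyrosine kinase gene RET and the chemokine gene CXCL12, had 5.5, 10, 21 and 21.5 reads against 9, 16, 39 and 39, with a log2 difference of -0.79 ± 0.11. The 28 windows of 10q without a read in any input all lay in this block, between 46312672 and 51625365. Unique placement of reads was not tested there. Across the centromere, 10p at 30 to 40 Mb, with the integrin gene ITGB1, had 6, 11, 24 and 26 reads against 9, 17, 35 and 36. On 1p, 75 to 85 Mb had 7, 12, 20 and 20 against 10, 18, 46 and 45, a difference of -0.51 and -0.58 in set 1 and of -1.20 and -1.17 in set 2. The blocks of chromosome 10 were of like size in both sets, and that of 1p was not.

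Landmark genes often named in cervical cancer, and with them the H3K9 methyltransferase genes given below, were read by the 2100-base window with most input reads. Of 57 genes listed, 49 were found under their symbol. Of these, 13 were above the autosomal median in all 4 inputs and 9 below it in all 4. SUV39H1, on X, was among the 13. Over all gene names on autosomes, each taken by its window with most reads, 20.6% were above in all 4 and 15.8% below, so the choice of window favours high values. All 5 genes found on 5p were above in every input. TERT, the catalytic subunit of telomerase (window 1295084 to 1297184), had 27, 31, 128 and 118 reads, a mean log2 level of 1.40 ± 0.37 (SD, n = 4). DROSHA, which makes the first cut in microRNA maturation, had 32, 45, 148 and 118, and SKP2, which marks cell cycle inhibitors for degradation, had 33, 49, 87 and 97. RICTOR, a subunit of mTOR complex 2, had the lowest level of the 5, 1.10 ± 0.32.

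On 16q, CDH1 had 29, 62, 178 and 150 reads, the highest mean level of the landmarks at 1.88 ± 0.21. On 20q, AURKA had 21, 29, 93 and 90 reads, and the window listed for ZNF217, on the strand opposite to the gene, had 21, 23, 86 and 47. On 13q, KLF5 (6, 14, 23 and 20 reads), KLF12 (7, 7, 41 and 20) and PIBF1 (7, 9, 29 and 22) had mean levels of -0.65, -0.63 and -0.63. KLF5 and KLF12 flank the viral integration site, and the bin that holds all 3, 70 to 75 Mb, had medians of 6, 11, 21.5 and 20 reads and a dosage of -0.72 ± 0.24 (n = 4, adjusted p = 0.00279). KLF12 was the sole one of these 3 to exceed the autosomal median in any input, in the non-migrated input of set 2. Of the 6 genes found on 3q, 0 were above in all 4 inputs and 0 below. The window listed for PIK3CA, on the minus strand and without a matched promoter sequence, had 9, 17, 19 and 33 reads.

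Among the H3K9 methyltransferase genes, SUV39H1, on X, had 18, 24, 60 and 64 reads, a level of 0.67 ± 0.21, above the autosomal median in every input. SETDB1 had 10, 24, 29 and 58. Its migrated input was higher in both sets, by 0.87 ± 0.30 (SE, n = 2 sets, limma adjusted p = 0.994). SUV39H2 had 13, 16, 49 and 59 reads and EHMT1 10, 17, 84 and 94. The window listed for EHMT2, on the strand opposite to the gene, had 1, 13, 43 and 42. No landmark passed the fraction test. Of the 49 found (STK11, without reads, was not fitted), 4 had an unadjusted p under 0.05 in limma (KLF12, DCC, ZNF217 and SETDB1). Over all windows tested 4.81% did, and none of the 4 genes is read as a difference.

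The window of STK11 (chromosome 19, 1203798 to 1205898), whose promoter sequence is printed above, had 0 reads in each of the 4 inputs, and so did the window of its neighbour SBNO2 (1174182 to 1176282). Both had 0 in the 4 H3K9me3 libraries as well. The windows on either side were read, with 7, 28, 64 and 58 reads for GPX4 and 5, 14, 76 and 58 for C19orf26. Taking 3 reads over the 4 inputs as the limit that a count of 0 allows, each of these windows was at least 51-fold lower than that of C19orf26, with 153 reads, which allows 1.96% of it. The limit covers counting error alone. The unread stretch lay within 134 kb between read windows, and the next windows outwards, those of POLR2E (14, 15, 43 and 50) and ATP5D (11, 12, 58 and 53), were read at the usual level of 19p.

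**Figure D4:**
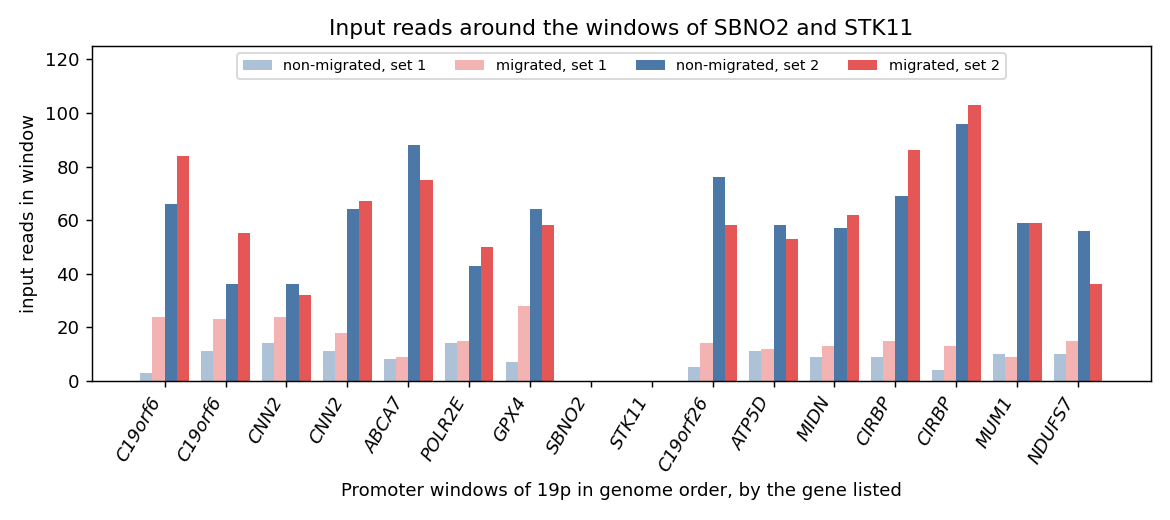
Input reads (y axis, linear from 0) in 16 neighbouring promoter windows of 19p in genome order (x axis, by the gene listed), with 1 bar per input library. SBNO2 and STK11 have no bar in any library, while GPX4 and C19orf26 beside them have 58 to 76 reads in each set 2 input.

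In all, 475 autosomal windows had 0 reads in the 4 inputs, and those with a window on either side formed 220 runs of 1 to 8 windows, 119 of them a single window. In 24 runs (50 windows) the windows on both sides held at least 0.5 times the autosomal median in both set 2 inputs. In 8 of these runs every window matched a RefSeq gene on the same strand. Besides SBNO2 and STK11 these were AMY1A, AMY1B and AMY1C, the salivary amylase genes, HIST2H4B, the window pair of PPIP5K1, and single windows of BMP8B, KRTAP9-7, RBFOX3 and GPAT2. The window of BMP8B had 9 reads in the H3K9me3 libraries, and the other 7 runs had 0. Several of these genes belong to families of near-identical copies, in which reads may not be placed. DNA that is missing and DNA in which reads cannot be placed give the same 0, and which applies to a window was not tested. Runs outside these 8 included one of 7 windows from GSTT2B to GSTT1, glutathione transferases, and single windows of APOBEC3B, a DNA cytosine deaminase, and BTNL3, which are known to be absent from some people's genomes. Fewer than 20 windows were matched on either arm of chromosome 8, so a run there could hardly be among the 8. Its run of 6 windows from FAM203A to BOP1 on 8q lay between windows with 403 and 231 reads over the 4 inputs.

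At the other end, the window of most reads was one listed for HFM1, a helicase gene of meiosis, on 1p (91852849 to 91854949), with 177, 279, 915 and 856 reads. That is 19.7, 16.4, 22.9 and 21.4 times the autosomal median. The remaining windows of the 10 highest were those of DHX32 (2 windows of 10q), FOXS1 and MYLK2 (20q), LINC00273 (16p), KIAA0895L, RANBP10 and DDX28 (16q) and ZNF595 (4p). Of these 10 windows 5 lay on 16q or 20q, arms of high dosage, which hold 521 and 615 of all 35205 autosomal windows of 2100 bases. The windows were ranked by the same reads that give an arm its dosage, so this count is not a separate result. KIAA0895L had 34, 49, 408 and 371 reads, so that its level was 3.78 and 2.88 times the median in set 1 and 10.2 and 9.28 times in set 2.

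The sets differed more than the fractions in the dosage of arms, with a correlation across arms of 0.928 between sets against 0.977 and 0.994 between fractions. The test between fractions used shares of reads and the test between sets below used dosage, so their counts of arms are not on the same measure. On 17p the median window had 9.5 and 17 reads in set 1 and 56 and 50 in set 2, which is a log2 dosage of 0.04 in set 1 and 0.40 in set 2. On 19p it was -0.13 and 0.22, and on 22q 0.16 and 0.47. In the other direction, 8q had -0.14 in set 1 and -0.51 in set 2, and 4q had -0.50 and -0.83. The share of autosomal promoter reads on 8q was 2.85%, 2.69%, 2.90% and 2.84%, not lower in set 2 in either fraction. The lower dosage of 8q in set 2 thus describes its median window and not its total reads. On 4q the share was also lower in set 2, with 2.34%, 2.21%, 1.76% and 1.83%. limma, with the fraction as a block, called 17 of 39 arms (43.6%) as different between sets, 7 higher in set 2 (17.9%) and 10 lower (25.6%), and 168 of 557 bins (30.2%), 32 higher (5.75%) and 136 lower (24.4%). In the fit of arms limma took the variance wholly from its prior, so every arm had the same SE of 0.061. Each arm alone had 1 residual degree of freedom. The call of arms changed with the libraries and windows used. Without either input of set 2 it fell to 0 arms (9 and 6 at an unadjusted p under 0.05), without the non-migrated or the migrated input of set 1 to 9 and 11, and with only the windows that had a promoter sequence to 0 of 37 (15 at an unadjusted p under 0.05). For bins it fell to 0 without the non-migrated input of set 1 (234 at an unadjusted p under 0.05).

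Base composition moved with the set. A promoter sequence was matched by gene name, chromosome and strand to 39.2% of the 2100-base autosomal windows. The sequence held 300 bases around a RefSeq start of the named gene. Its position was not checked against that of the window, so it can lie outside the window. These windows were split into 10 groups by the GC content of the matched sequence. In set 1 the mean level relative to all these windows was 0.953 (non-migrated) and 0.916 (migrated) in the lowest group, with 24.3% to 44% GC, and 0.949 and 0.980 in the highest, with 76.7% to 94%. In set 2 it was 0.639 and 0.667 in the lowest group, 1.18 and 1.16 in the seventh and 1.10 and 1.10 in the highest. The profile was thus nearly flat in set 1 and rose from low to high GC in set 2, in both fractions. Of the genes whose sequences are printed above, FGFR3, with the highest GC content, had 7 and 10 reads in set 1, under the medians of 9 and 17, but 55 and 60 in set 2, over the median of 40. KLF5, with the lowest, had 6 and 14 in set 1 and 23 and 20 in set 2. GPX4, also GC-rich, was above the median in set 2 in both fractions and in set 1 in the migrated input, and STK11 had no reads in either set. The part of base composition in the differences between sets was not tested beyond a division of reads by the median of their GC group. After it, on the windows with a sequence, the difference between sets changed from 0.36 to 0.28 for 19p, from 0.36 to 0.29 for 17p, from 0.36 to 0.20 for 22q and from -0.25 to -0.21 for 4q. Over the 37 arms with such windows, the difference between sets came nearer to 0 in 27 and moved further from it in 10, among them 9p (from -0.04 to -0.18) and 18q (from -0.02 to -0.15). On the same windows the dosage of 16q changed from 1.32 to 1.29, that of 5p from 1.18 to 1.21, of 20q from 0.86 to 0.85, of 19q from 0.37 to 0.34, of 4q from -0.74 to -0.68, of 13q from -0.66 to -0.63, of 4p from -0.55 to -0.54 and of 9p from -0.51 to -0.47. For 8p and 8q no such value was computed, since fewer than 20 windows of each had a matched sequence.

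**Figure D5:**
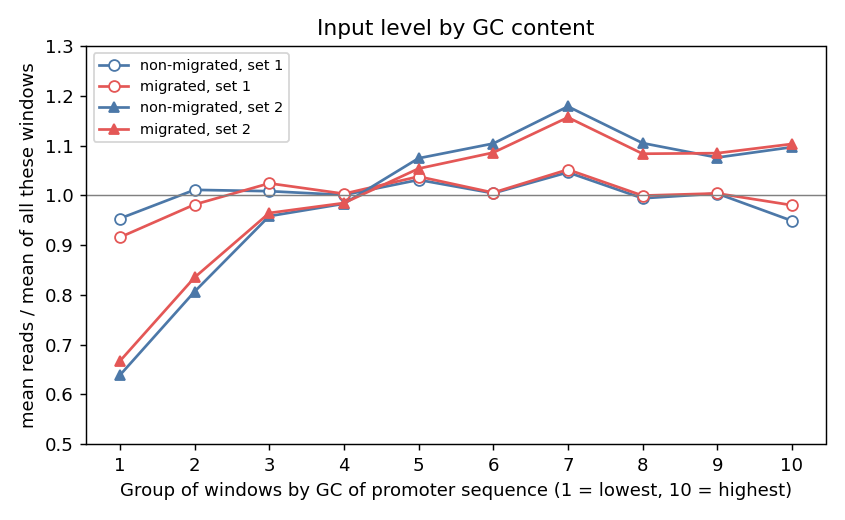
Mean input level in 10 groups of autosomal 2100-base windows with a matched promoter sequence (y axis, mean reads over mean of all these windows). The groups are ordered by GC content of the matched sequence (x axis, 1 lowest), and the 4 inputs are drawn. Set 1 (circles) stays between 0.916 and 1.05, and set 2 (triangles) runs from 0.639 and 0.667 in the lowest group to 1.18 and 1.16 in the seventh.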

How the data were processed

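Genomic DNA of 4 SiHa input libraries was analysed over promoter windows of 2100 bases (2000 upstream to 100 downstream of a start), with some wider ones. Values deposited by the authors are log2 values, per the file headers, in hg19. Tools in the submitters' processing notes are Bowtie2 2.2.9, SAMtools 1.3 and FastQC 0.11.5; the counting program is not stated in the sources used here. After the constant of each library was removed, 100% of values were whole within 0.01, with windows without reads entered as 0.9, and these recovered reads were used.

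A test of counts had been planned if the unit was counts. Since it was log2, limma 3.58.1 (R 4.3.3) was used, for windows on log2 of reads plus 0.5 per library size with trimmed mean of M values scaling and precision weights. Windows needed the level of 10 reads in an input of median size in at least 2 inputs, and 15 reads in all. Arms (at least 20 windows) and bins of 5 Mb (at least 10) were tested on log2 of their share of reads between fractions, and on log2 of median reads over the autosomal median (bins plus 0.5) for dosage. p-values were Benjamini-Hochberg adjusted over all features tested, at 0.05. They measure the spread between these libraries, which is partly technical. For windows between fractions and for arms between sets, limma took the variance wholly from its prior, which is shared by all features. Tables were made with Python 3.11.15, pandas 2.3.3, numpy 2.4.6, scipy 1.17.1 and matplotlib 3.10.9. The window test and the arm test were tested on simulated data, in which the window test missed most 2-fold changes. Neither simulation held deviations shared by the libraries of a set.

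The set was kept as a block since the series text calls the sets paired. Same-set libraries deviated together, with deviations from the group means correlated at 0.471 across 36217 windows, 0.978 across 39 arms and 0.814 across 557 bins. Named windows were those past the threshold or, failing that, the 5 of smallest p per direction among windows of 20 or more mean reads whose sign agreed across sets, the 10 of highest level, the 6 highest and 6 lowest arms and bins, and listed landmark genes. Libraries, lists and rules were chosen with earlier results of these data known. The comparison of sets, the blocks within arms and the unread runs were added after values had been seen.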

Additional observations from a re-analysis of the deposited data

How the results depend on the processing

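Dosage rested on few libraries: the count of arms called was 14 of 39 with the fractions averaged within each set against 25, 19 with set 1 alone and 24 with set 2 alone. With a replicate block for the paired sets it was 28 arms (16 higher and 12 lower) and 358 bins (168 and 190). Leaving out each library in turn gave 20 to 24 arms and 200 to 282 bins. Of bins, 173 of 436 were called with the windows that have a promoter sequence, and 183 of 557 with the fractions averaged. Among the 25 called arms, 271 values under alternatives kept direction and call and 50 kept direction without the call.

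Between fractions, the trended prior variance gave 1 arm, and leaving out each library gave 0 arms in each case, 0 to 1 bins and 0 windows. Without the replicate block the counts were 0 windows, 0 arms and 0 bins, and no call changed with the paired fit. The named windows, chosen for a sign shared by the sets and never called, kept direction, but their size moved when a library was left out, from 0.06 to 1.91 for RP11-624L4.1, 0.35 to 1.38 for PIGN, 0.82 to 1.52 for ENO2 and -1.89 to -0.55 for RP11-740P5.2.

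Between sets, the count of arms was 0 with the windows that have a promoter sequence and 0 after GC correction, and 0 to 11 when a library was left out. The count of bins was 105 of 436 after GC correction and 0 to 147 when a library was left out. Those fits leave 1 library in a set, assumed to vary like the other set. The median SE was 0.061 for arms in the full fit, 0.028 with windows that have a sequence and 0.034 after GC correction. The cause of the changes in count was not tested. The planned GC correction over all windows was not run, since a sequence was matched to only 39.2% of them, against a minimum of 80%; the version used was added later. Depth limits set 1, where the autosomal median is 9 and 17 reads, so that medians move in steps of 1 read or 0.5.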

Other observations

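The unread runs were spread over several arms, with 56 of the 475 unread autosomal windows on 1q, 45 on 9p, 42 on 15q and 36 each on 16p and 1p. On 8p and 8q, 2 runs of 4 and 6 windows lay between read neighbours. Within arms, the SD of bin dosage was higher in set 2 than in set 1 on 5p (0.362 against 0.168), 3p (0.319 against 0.119) and 11q (0.293 against 0.0975), and of like size on 2q (0.233 and 0.257) and 4q (0.187 and 0.183). The 3 bins at the end of 9q, from 130 to 145 Mb, had medians of 13, 24, 80 and 77 reads, of 11, 22, 86 and 79, and of 10, 19.5, 91 and 89, so that their log2 dosage of 0.77, 0.72 and 0.70 came mainly from set 2.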
